A study of Homo sapiens with 8 samples.

Results

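The genes of the nuclear-encoded oxidative phosphorylation system were taken from a gene table of human cells by their names: each row whose name begins with NDUF, UQCR, COX4 to COX8 or ATP5, or is SDHA, SDHB, SDHC or SDHD. The rule used no measured value and found 94 of 13471 genes. Of these, 75 encode structural subunits: 37 of complex I, 4 of complex II, 8 of complex III, 12 of complex IV and 14 of complex V. NDUFA4, named for complex I, was placed in complex IV, and so was COX7A2L, a factor that joins complexes into supercomplexes. Another 8 members are assembly factors of complex I (NDUFAF1 to NDUFAF7 and ATP5SL), and the remaining 11 are antisense RNAs, readthrough genes, near-identical copies and the associated factor ATP5S.

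Oxidative phosphorylation is the process by which mitochondria make ATP. Complexes I and II pass electrons from NADH and succinate to ubiquinone, complex III passes them on to cytochrome c, and complex IV passes them to oxygen. Complexes I, III and IV pump protons across the inner membrane, and complex V, the ATP synthase, uses the gradient. Most subunits are encoded in the nucleus, translated in the cytosol and imported, whereas a small set is encoded by mitochondrial DNA. Retinal pigment epithelium is known for a high demand for oxidative metabolism. hnRNP U, also called SAF-A, is an abundant nuclear protein that binds RNA and chromatin, and most messages for the respiratory chain are spliced in the nucleus before they leave it.

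The cells were hTERT-RPE1, a telomerase-immortalised human line of retinal pigment epithelial origin. RNA recovered by immunoprecipitation (IP) with the anti-hnRNP U antibody was sequenced next to RNA without IP, in interphase and in mitosis, with 2 libraries in each of the 4 groups. Interphase cells had been kept in 2 mM thymidine, a block of DNA replication, for 24 h. Mitotic cells had the same thymidine block, a release of 6 h and an overnight arrest with STLC, an inhibitor of the kinesin Eg5, so the cell cycle phase and the drug used to reach it cannot be told apart. Thymidine was common to all 4 groups. Cells were lysed with detergent and ribosomal RNA was depleted, and the labels do not say whether RNA without IP was taken from the same cleared lysate as the IP. No IP with another antibody was analysed here, and RNA held by the beads cannot be told apart from RNA bound by hnRNP U. The labels do not say that the 2 libraries of a group came from separate cultures, so the p-values below measure only the spread between these libraries, which may be technical.

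Values were FPKM, fragments scaled by transcript length and by the mapped fragments of the library. Total depth is unknown, and relative depths read from the low values spanned 0.639 to 1.19 (interphase without IP, replicate 1, set to 1), with both ends in the mitotic IP. These ends rest on 61 and 49 genes of 2386 low ones. Over the 75 subunits, Pearson's r between the replicates of a group was 0.975 to 0.995 in log2 values. The mitosis check held for the labels: CCNB1, PLK1, CDC20, AURKA and BUB1 all rose in mitosis without IP, by 1.18 to 2.66 on the log2 scale. Of 10 markers of retinal pigment epithelium, MITF (7.06 to 33.2 FPKM over the 8 libraries), OTX2 (3.33 to 22.2 FPKM) and PMEL (0.032 to 0.144 FPKM) had values. RPE65, BEST1, RLBP1, TYR, TYRP1, TTR and SERPINF1 were not analysed here, nor were defining markers of endothelial or erythroid cells. Of 3 leukocyte markers, CD68 lay at 3.00 to 12.2 FPKM, and its part in any result was not tested. The others, PTPRC and CD3E, were not analysed here.

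The coding sequences of 4 genes that differed in their IP values are shown, from GENCODE release 29 on GRCh38. COX8A (chr11:63974607-63976543, plus strand), a small nuclear-encoded subunit of cytochrome c oxidase, and ATP5I (chr4:672436-674338, minus strand), a small subunit of the ATP synthase membrane part, were the members with the lowest values in the interphase IP relative to no IP. NDUFA5 (chr7:123536997-123558255, minus strand), an accessory subunit of complex I, was higher in both IPs, and SDHD (chr11:112086773-112120013, plus strand), which anchors succinate dehydrogenase in the membrane, was higher in the mitotic IP. Capitals mark runs of at least 5 G or C, and of the 2 longer genes the first 300 bases are shown.
COX8A: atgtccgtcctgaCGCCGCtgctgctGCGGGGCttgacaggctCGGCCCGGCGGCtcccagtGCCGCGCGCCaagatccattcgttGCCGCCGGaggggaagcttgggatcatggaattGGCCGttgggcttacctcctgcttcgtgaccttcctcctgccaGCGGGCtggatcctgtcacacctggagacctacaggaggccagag
ATP5I: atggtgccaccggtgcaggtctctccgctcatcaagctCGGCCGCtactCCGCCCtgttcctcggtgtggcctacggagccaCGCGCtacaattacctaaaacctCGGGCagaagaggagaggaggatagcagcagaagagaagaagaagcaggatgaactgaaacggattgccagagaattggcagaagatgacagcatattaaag
NDUFA5: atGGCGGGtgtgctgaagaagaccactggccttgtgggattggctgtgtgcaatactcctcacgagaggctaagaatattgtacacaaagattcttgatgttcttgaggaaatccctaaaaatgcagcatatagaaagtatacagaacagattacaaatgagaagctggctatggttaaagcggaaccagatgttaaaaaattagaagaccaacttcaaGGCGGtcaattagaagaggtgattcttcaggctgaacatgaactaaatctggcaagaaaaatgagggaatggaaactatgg
SDHD: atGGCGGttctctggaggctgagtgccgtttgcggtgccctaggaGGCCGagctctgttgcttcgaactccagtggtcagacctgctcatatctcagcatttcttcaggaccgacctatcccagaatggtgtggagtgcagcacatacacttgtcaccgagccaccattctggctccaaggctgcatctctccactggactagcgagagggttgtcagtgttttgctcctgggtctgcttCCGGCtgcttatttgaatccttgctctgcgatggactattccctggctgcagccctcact
The coding parts of COX8A and ATP5I are both 207 nt long, with 65.7% and 54.1% GC and 7 and 4 such runs. NDUFA5 has 348 nt, 42.5% GC and 2 runs, and SDHD has 477 nt, 53.5% GC and 4 runs. These counts are over the whole coding parts, and not all runs of SDHD lie in the bases shown. ATP5I and SDHD have the same count, in 207 and 477 nt, so the count alone does not separate the low genes. Runs per length were not compared.

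Without IP, the subunit genes were among the abundant messages of interphase cells. Their median was 92.5 and 85.2 FPKM in the 2 interphase libraries without IP, 18.5 and 17.4 in the interphase IP, 52.0 and 52.0 in mitosis without IP, and 29.7 and 28.4 in the mitotic IP. Over all genes the median stayed between 5.96 and 7.13 FPKM in the 8 libraries. In interphase without IP, 29 subunits stood among the highest 500 genes and 33 had a mean above 100 FPKM. That number was 0 in the interphase IP, 18 in mitosis without IP and 6 in the mitotic IP. Over all genes, 614, 506, 613 and 691 had a mean above 100 FPKM in the same order of groups. Complex IV stood highest in interphase without IP, with medians of 207 and 230 FPKM, and complex II lowest, with 24.2 and 22.5. COX7C, a small subunit of cytochrome c oxidase, reached 554 and 573 FPKM, whereas SDHC had 3.52 and 4.47 FPKM.

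**Figure D1:**
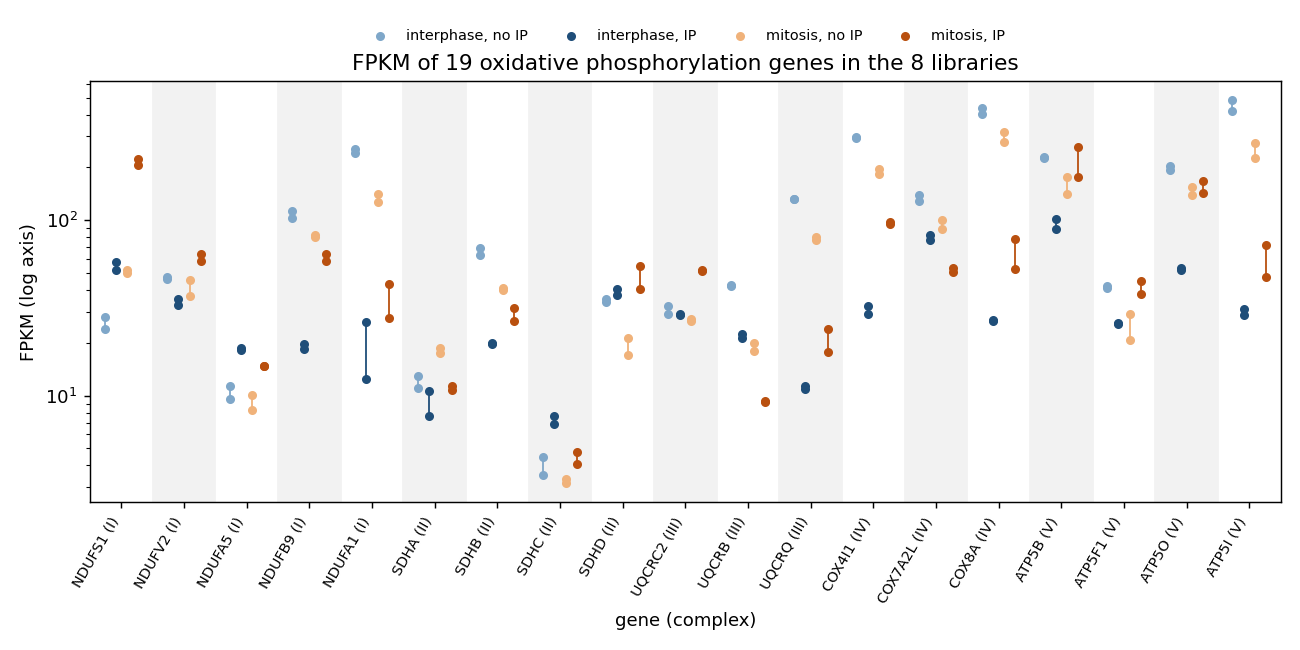
FPKM (log axis) of 19 oxidative phosphorylation genes, with the complex of each in brackets. Each point is 1 library, lines join the 2 libraries of a group, and colours give the 4 groups. COX8A stands at 438 and 402 FPKM in interphase without IP and at 27.1 and 26.5 in the IP, while NDUFS1 is highest in the mitotic IP, at 223 and 206 FPKM.

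The first comparison asked which of these messages were recovered with hnRNP U in interphase. Most of the set was lower in the IP than without it: of the 94 members, 78 fell and 4 rose, with a median log2 fold change of -2.07 (limma, adjusted p below 0.05). Among all genes the IP was widely different from RNA without IP, with 37.0% called lower and 37.6% called higher, and a median of 0.02. A fall of at least 3 on the log2 scale was called for 26 members, against 1.6% of all genes. Both IP libraries lay below both libraries without IP for 70 of 75 subunits, a pattern seen for 42.8% of all genes. FPKM are shares of each library, so a fall here is a lower share of the IP RNA than of the RNA without IP.

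By complex, the subunits of complex IV were lowest, with a median of -3.10 and all 12 called lower. Complex I had a median of -2.44 with 35 of 37 lower and 2 higher. Complex V had -1.94 with all 14 lower, and complex III had -1.91 with 7 of 8 lower. Complex II differed in its members: its median was -0.10, SDHA and SDHB were called lower, SDHC higher, and SDHD was not called.

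COX8A had 438 and 402 FPKM without IP and 27.1 and 26.5 FPKM in the IP. The IP libraries lay far below the others, with a mean 15.7 times lower, and the log2 fold change was -3.92 ± 0.18 (SE; adjusted p = 4.3e-07). ATP5I went from 420 and 481 FPKM to 30.9 and 28.9, a log2 fold change of -3.87 ± 0.20 (adjusted p = 5.6e-07). Next to these stood COX6B1, which faces the cytochrome c side of complex IV, at -3.74, and NDUFA1, an accessory subunit of the complex I membrane arm, at -3.70. NDUFA1 had 253 and 242 FPKM without IP and 26.1 and 12.5 in the IP, so its IP libraries lay apart from each other, and both lay below the libraries without IP. NDUFA1 shares its interval in the table with 1 other gene, as do UQCRQ, ATP5F1 and NDUFV2 below, and NDUFAF3 shares it with 2. In complex III the lowest was UQCRQ, a small subunit, with 132 and 132 FPKM against 11.3 and 10.97 (log2 fold change -3.45). The core proteins of complex III split: UQCRC1 fell by 1.74 on the log2 scale, whereas UQCRC2 had 32.4 and 29.3 FPKM without IP and 28.7 and 29.3 in the IP, and was not called (log2 fold change -0.08 ± 0.09). UQCRFS1, the Rieske iron-sulphur protein, fell by 1.03.

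Core and accessory subunits are described side by side, without a test between them. In complex I, the 7 core subunits that carry the flavin and iron-sulphur clusters had a median of -2.11, and the 30 accessory subunits -2.59. The 3 core subunits of the NADH-oxidising module had 3 different values: NDUFV1 fell by 2.11, NDUFV2 fell by 0.44 and NDUFS1 rose by 1.05. In complex V, the subunits of the F1 part, ATP5A1, ATP5B, ATP5C1 and ATP5D, fell by 0.84, 1.25, 1.21 and 2.83. ATP5G1 and ATP5G2 fell by 3.11 and 3.26. ATP5G1, ATP5G2 and ATP5G3 are separate genes for the same mature subunit of the rotor ring, and ATP5G3 fell by 1.40. No test compared the 3 genes with each other.

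NDUFS1 (chr2:206114817-206159603, minus strand), the largest subunit of complex I, was the member with the strongest rise. It had 27.9 and 24.0 FPKM without IP and 57.6 and 52.0 in the IP, and the groups did not overlap (log2 fold change 1.05 ± 0.11, adjusted p = 3.2e-05). Its longest annotated transcript, 11819 nt, runs beyond the interval of its row, and the longest within it has 3361 nt. With trends on transcript length and GC content removed, its value was -0.23 with the first length and 0.28 with the second, and neither passed the test. NDUFA5 rose by 0.77, from 9.57 and 11.3 FPKM to 18.7 and 18.1. SDHC, the other membrane anchor of complex II, rose by 0.73, from 3.52 and 4.47 FPKM to 6.88 and 7.66. The SDHC value turned to -0.52 with the trend on its longest transcript removed, and was 1.18 with the longest transcript inside its interval. SDHA, the flavoprotein of complex II, had 12.9 and 11.1 FPKM without IP and 10.6 and 7.69 in the IP; its fall of 0.37 had an adjusted p of 0.046 and was lost in 11 of the alternatives. The iron-sulphur subunit SDHB, with 63.0 and 69.4 FPKM against 19.8 and 19.9, fell by 1.69.

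**Figure D2:**
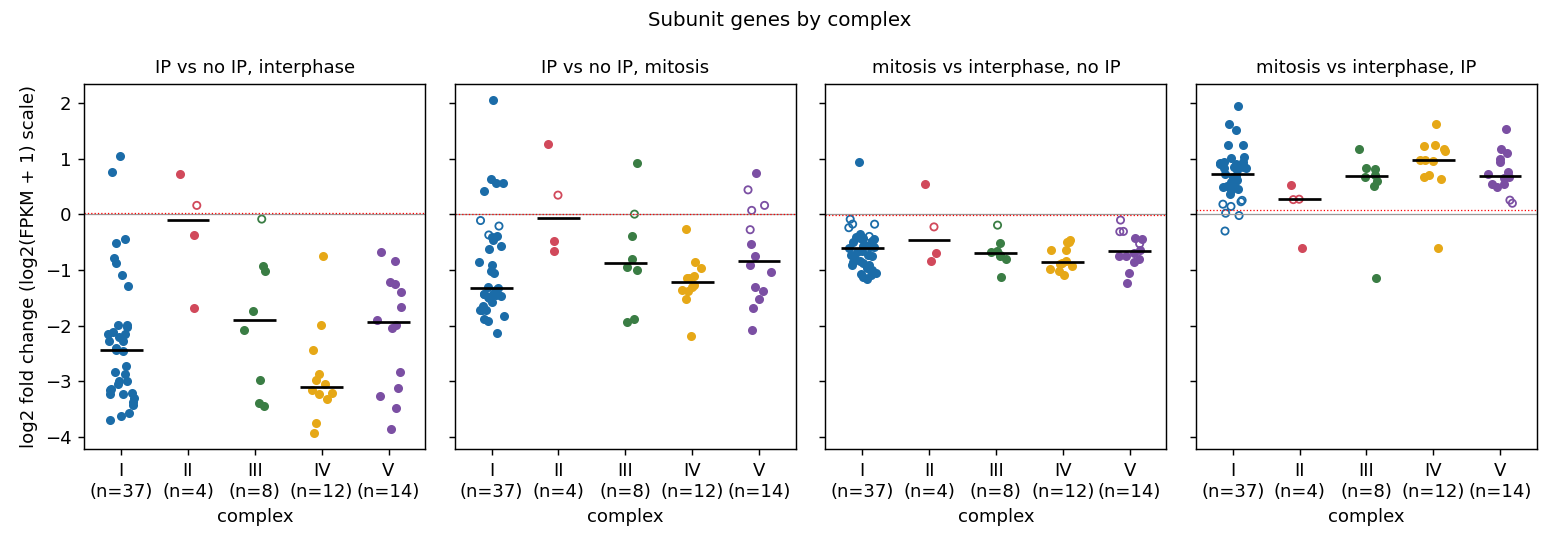
Log2 fold change of each of the 75 subunit genes (y axis, log2(FPKM + 1) scale) by complex (x axis) in 4 comparisons. Filled points passed the test, open points did not, black bars are medians of the complex, the dotted red line is the median of all genes and the grey line is 0. Complex IV lies lowest in the interphase IP (median -3.10) and highest in the rightmost panel (median 0.98).

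In mitosis, the IP was again lower than RNA without IP for most members, by a smaller amount. Of 94 members, 64 fell and 12 rose, with a median of -0.89, against 31.7% lower and 32.8% higher among all genes and a median of 0.01. Medians by complex were -1.32 for complex I (29 of 37 lower, 5 higher), -0.06 for complex II (2 of 4 lower, 1 higher), -0.87 for complex III (6 of 8 lower, 1 higher), -1.21 for complex IV (12 of 12 lower) and -0.83 for complex V (9 of 14 lower, 1 higher). Both mitotic IP libraries lay below both mitotic libraries without IP for 60 of 75 subunits (40.1% of all genes) and above them for 10 (41.4% of all genes).

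NDUFS1 again stood at the top. It had 52.0 and 49.8 FPKM in mitosis without IP and 223 and 206 in the IP, a mean 4.21 times higher, with no overlap (log2 fold change 2.05 ± 0.11, adjusted p = 6.4e-06). SDHD had 17.1 and 21.2 FPKM without IP and 40.7 and 55.0 in the IP, again without overlap, and rose by 1.27 ± 0.15. In interphase the 2 groups of SDHD were close (35.5 and 33.9 FPKM against 40.5 and 37.5) and did not pass the test (log2 fold change 0.16). UQCRC2 rose by 0.93, from 26.5 and 27.2 FPKM to 51.6 and 52.2, and NDUFA5 rose by 0.64. At the other end, COX8A fell by 2.19, from 319 and 278 FPKM to 78.5 and 52.6. NDUFB1, an accessory subunit of the complex I membrane arm, fell by 2.14, ATP5I by 2.08 and UQCR10, a small subunit of complex III, by 1.93. UQCRC1 fell by 0.39, but its value was 0.23 and 0.19, not called, with length and GC trends removed in the 2 ways. COX5A fell by 0.27, a call lost in 9 alternatives.

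There were 4 subunits called in opposite directions in the 2 IP comparisons, lower in interphase and higher in mitosis: ATP5F1, of the stalk that holds the ATP synthase head, NDUFA9, NDUFB5 and NDUFV2. Among all genes 2.47% did so. ATP5F1 had 42.3 and 41.2 FPKM without IP and 25.8 and 25.7 in the IP in interphase, and 20.6 and 29.01 against 38.1 and 45.1 in mitosis. Its log2 fold changes were -0.68 and 0.74. NDUFV2 went from -0.44 to 0.56, NDUFB5 from -0.51 to 0.56 and NDUFA9 from -1.08 to 0.42. The rise of NDUFA9 in mitosis was not called after quantile normalization (0.26), without replicate 2 of the mitotic IP (0.25) or without replicate 1 of mitosis without IP (0.30), and it was -0.031 with length and GC trends over the longest transcript removed. With the same trends removed, the mitotic value of NDUFB5 was 0.04 and the interphase value of NDUFV2 was -0.08, and neither was called. The cross-count of both IP comparisons, which share no library, gave 63 of 94 members lower in both, against 23.0% of all genes. A further 11 were lower in interphase and not called in mitosis (11.5% of all genes), and 2, NDUFS1 and NDUFA5, were higher in both (24.8% of all genes).

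**Figure D3:**
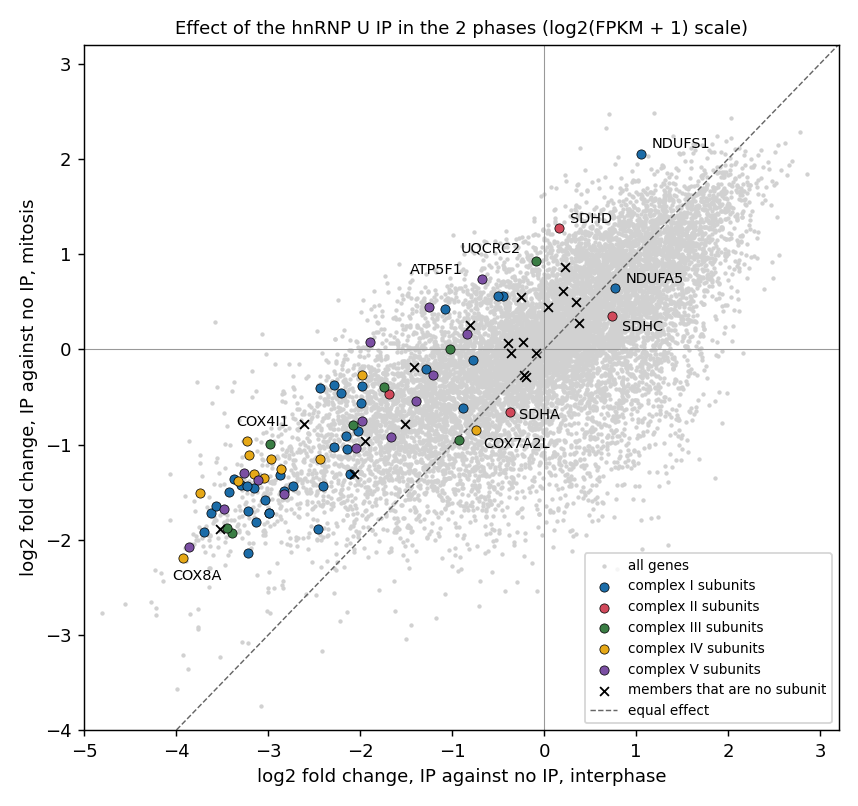
Log2 fold change of IP against no IP in interphase (x axis) and in mitosis (y axis), both on the log2(FPKM + 1) scale, for all genes (grey) and for the 94 members (coloured by complex, crosses for members that are no subunit). Some genes outside the members lie beyond the axes and are not shown, the lowest at -8.30 in interphase and -7.16 in mitosis. The dashed line marks an equal effect, and 8 of the 94 members lie below it.

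The difference between the 2 IP effects was tested as an interaction, mitosis minus interphase. In limma it was called positive for 75 of the 94 members and negative for 0, with a median of 1.27. Of the 8 members with a negative estimate, 0 had an unadjusted p below 0.05. Among all genes, 27.2% were called higher and 19.9% lower, with a median of 0.07. Quantile normalization called 1 member lower, COX7A2L. Removal of length and GC trends called 2, NDUFA6-AS1 and NDUFB2-AS1, and with transcripts inside the file interval SDHC as well. The subunits of complex IV had the highest median difference, 1.77 (11 of 12 called), followed by complex V with 1.36 (14 of 14), complex I with 1.32 (35 of 37), complex III with 1.31 (7 of 8) and complex II with 0.41 (2 of 4).

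COX4I1, the subunit of cytochrome c oxidase through which ATP can inhibit the enzyme, had the highest difference of the 94, 2.27 ± 0.16 (adjusted p = 5.3e-05). It had 298 and 293 FPKM in interphase without IP and 29.02 and 32.5 in the IP, then 183 and 195 in mitosis without IP and 97.9 and 95.5 in the IP. The 4 groups did not overlap, and the gap between IP and no IP closed from 9.61 times to 1.96 times. COX6B1 had a difference of 2.23, NDUFB9, an accessory subunit of complex I, 2.03, and UQCR11, of complex III, 1.99. ATP5O, of the ATP synthase stalk, had 204 and 192 FPKM against 52.1 and 53.2 in interphase, and 140 and 154 against 142 and 167 in mitosis, where the groups overlapped. Its difference was 1.97 ± 0.18.

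The test was not passed by 6 subunits. UQCRB, which binds ubiquinone in complex III, and COX7A2L had similar values in both phases: -0.92 and -0.95 for UQCRB and -0.74 and -0.85 for COX7A2L. The difference was -0.03 ± 0.13 for UQCRB and -0.11 ± 0.16 for COX7A2L, and that of UQCRB became 0.55 and 0.42, both called, with length and GC trends removed in the 2 ways. SDHA had -0.29, SDHC -0.39, NDUFA5 -0.12 and NDUFV3 0.26. UQCRB has near-identical copies such as UQCRBP1, and its counts may be split between them.

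Without IP, most members were lower in mitosis than in interphase. This comparison uses the same libraries without IP as the 2 IP comparisons, so it is not independent of them. In bulk RNA, a smaller share of cells with a message and less of it in each cell cannot be told apart. Of the 94 members 68 fell and 4 rose, with a median of -0.63, against 25.5% lower and 26.2% higher among all genes and a median of 0.00 to 2 decimals. With length and GC trends removed, the members' median was -0.37, with 53 lower and 8 higher. All 12 subunits of complex IV fell (median -0.85), with 31 of 37 in complex I, 7 of 8 in complex III, 10 of 14 in complex V and 2 of 4 in complex II. ATP5G2 had 167 and 173 FPKM in interphase and 65.6 and 78.0 in mitosis, a fall of 1.24 on the log2 scale. NDUFA13, a complex I subunit also known as GRIM-19, fell by 1.16, UQCRB by 1.12 and COX6B1 by 1.09. For each of these the mitotic libraries lay below the interphase ones. NDUFS1 rose by 0.95, from 27.9 and 24.0 FPKM to 52.0 and 49.8, and SDHA by 0.55, from 12.9 and 11.1 FPKM to 18.7 and 17.4. These were the 2 subunits called higher, beside the members NDUFAF1 and ATP5L2.

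Within the IP, the direction between phases was the opposite: 69 members rose in the mitotic IP against the interphase IP and 5 fell, with a median of 0.68, against 35.8% higher and 25.6% lower among all genes and a median of 0.08. With trends over transcripts inside the file interval removed, 9 fell. Subunit medians were 0.98 for complex IV (11 of 12 higher), 0.73 for complex I (30 of 37), 0.70 for complex III (7 of 8), 0.70 for complex V (12 of 14) and 0.27 for complex II (1 of 4). NDUFS1 rose by 1.95, COX4I1 by 1.62, NDUFB9 by 1.63 and ATP5O by 1.53. The 3 subunits that fell were UQCRB (22.4 and 21.2 FPKM to 9.22 and 9.35, -1.15), SDHC (6.88 and 7.66 FPKM to 4.75 and 4.09, -0.61) and COX7A2L (76.9 and 82.7 FPKM to 53.2 and 50.8, -0.61). The assembly factors NDUFAF4 (-0.42) and NDUFAF6 (-0.35) fell as well. In the interphase IP, UQCRB and COX7A2L had been closer to 0 than the medians of their complexes.

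The subunits differ from most genes in length. Their median coding length was 423 nt, against 1410 nt over 12128 genes with a coding sequence, while their median coding GC content was 51.6% against 51.7%. Across the 75 subunits, the log2 fold change in the interphase IP went with coding length (Spearman's rho 0.60, Pearson's r 0.61) and against coding GC content (rho -0.53, r -0.51). In mitosis the values were 0.63 and 0.65 for length and -0.47 and -0.45 for GC content. Over all genes rho with coding length was 0.35 in interphase and 0.07 in mitosis, and rho with coding GC content was -0.63 and -0.50, farther from 0 than over the subunits. These correlations are across genes, which share their libraries and are not independent replicates, and are given as description.

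The 17 subunits with a coding length under 300 nt, COX8A and ATP5I among them, had a median of -3.22 in interphase and -1.68 in mitosis. The 39 subunits from 300 to under 600 nt had -2.44 and -1.04, and the 9 from 600 to under 1000 nt had -1.69 and -0.27. The 10 of 1000 nt or more had -0.96 and 0.03. The median difference between phases was 1.70, 1.31, 1.41 and 1.01 in the same order. NDUFA5 and SDHD, whose sequences are shown above, and SDHC were the 3 of those 39 with a positive value in interphase. With length and GC trends over all genes removed, the median of the 94 members was -1.36 in interphase (80 lower, 6 higher) and -0.61 in mitosis (57 lower, 14 higher), and the difference was 0.85 (69 positive, 2 negative).

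**Figure D4:**
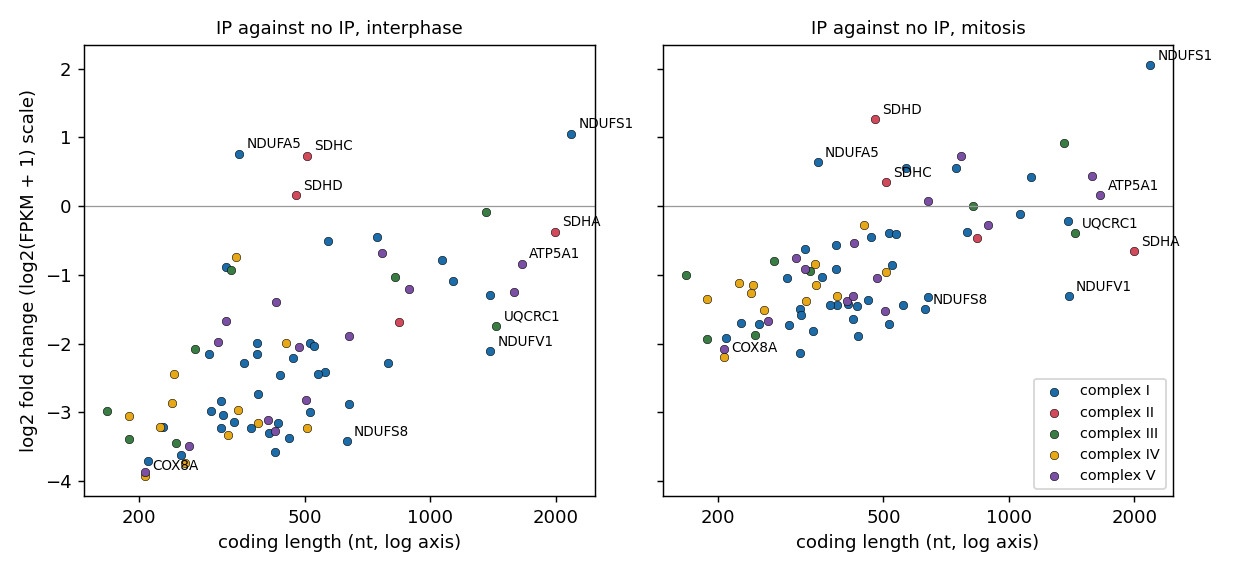
Log2 fold change of IP against no IP (y axis, log2(FPKM + 1) scale) against coding length (x axis, nt, log axis) for the 75 subunit genes in interphase (left) and mitosis (right), coloured by complex. Subunits with the shortest coding sequences lie lowest, with medians of -3.22 and -1.68 under 300 nt, and NDUFA5, SDHC and SDHD are the 3 subunits from 300 to under 600 nt above 0 in interphase.

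Apart from the IP comparisons, the promoters of the members were searched for motifs of factors known to act on respiratory genes. A RefSeq window from 250 bases before to 50 after the gene start (GRCh38.p14) was matched for 73 members, 62 of them subunits. Both strands were searched with no mismatch. The NRF1 motif (GCGCA, any base, GCGC) was in 15 subunit windows (24.2%) against 6.28% of all 27305 windows. These windows are a wider set than the 13471 genes of the gene table. The ETS motif ccggaag, bound by GABPA, was in 19 (30.6%) against 10.7%, and the YY1 motif aagatggc in 11 (17.7%) against 3.03%. At least 1 of the 3 was in 36 subunit windows, against 17.9% of all windows. The bases before the start of 2 genes are shown from these windows, up to the first base of the gene in GENCODE, with whole matches in capitals. They are ATP5I (chr4:674339-674526, minus strand) and UQCR11 (chr19:1605491-1605712, minus strand), 2 subunits low in the interphase IP. Both windows hold the NRF1 and the ETS motif, in different places.
ATP5I: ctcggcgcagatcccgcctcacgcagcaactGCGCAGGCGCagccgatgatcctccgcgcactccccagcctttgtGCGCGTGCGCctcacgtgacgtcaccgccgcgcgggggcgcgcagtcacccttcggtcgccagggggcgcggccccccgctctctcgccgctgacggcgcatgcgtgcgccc
UQCR11: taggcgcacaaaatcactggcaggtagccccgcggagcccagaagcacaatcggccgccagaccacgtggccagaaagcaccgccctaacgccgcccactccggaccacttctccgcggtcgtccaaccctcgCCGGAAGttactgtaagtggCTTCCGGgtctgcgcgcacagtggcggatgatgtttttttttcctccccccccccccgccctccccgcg
The stretch of ATP5I shows its NRF1 motif at 2 places, and its ETS motif lies past the end of the stretch, just after the RefSeq start. The stretch of UQCR11 shows its ETS motif at 2 places, once on each strand. The first of its 2 matches to the NRF1 motif begins at the last base shown and runs past the end. The other lies past the end, just before the RefSeq start. In the interphase IP the log2 fold changes of these genes were -3.87 and -2.98. A match is a description of the letters and not evidence of binding, and a link between motifs and the IP values was not tested.

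The assembly factors of complex I build the complex and are not part of it. In interphase 3 of the 7 NDUFAF genes fell (42.9%, against 37.0% of all genes) and 1 rose, with a median of -0.23. In mitosis 2 fell (28.6%, against 31.7% of all genes) and 1 rose, with a median of 0.08, so both shares lay near those of all genes. ATP5SL, the other assembly factor, fell by 1.41 in interphase and was not called in mitosis (-0.18). NDUFAF3 had 54.3 and 55.6 FPKM without IP and 7.92 and 8.46 in the interphase IP, without overlap, and fell by 2.61. In mitosis it fell by 0.79, and the difference was 1.82. NDUFAF6 rose by 0.38 in interphase (9.10 and 9.01 FPKM to 10.8 and 13.6), a call lost without replicate 2 of the interphase IP (0.23).

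Among members that are no subunit, the ends in interphase were ATP5EP2 and, outside the NDUFAF genes, ATP5S. ATP5EP2, a copy of the ATP synthase epsilon gene that was itself not analysed here, fell by 3.53, from 122 and 145 FPKM to 12.1 and 9.31, and reads of the 2 cannot be told apart. ATP5S, a factor associated with the ATP synthase, had 4.22 and 3.79 FPKM without IP and 4.88 and 5.86 in the interphase IP and was not called (0.34). In mitosis it rose by 0.50. The ATP5S values were -1.04 and -0.14 with length and GC trends over the longest transcript removed, and 1.18 and 0.79 with transcripts inside the interval. The antisense RNAs and readthrough genes were near or below 1 FPKM in most libraries and are uncertain. All but NDUFA6-AS1 share their interval with another gene.

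Other genes of the pathway, outside the name rule, were described by the same fit. Of 5 further structural genes, 4 fell and 1 rose in each IP comparison. USMG5, a small ATP synthase subunit, fell by 3.26 in interphase and 1.85 in mitosis, whereas CYCS, cytochrome c itself, rose by 0.46 and 0.85. Of 41 further assembly factors, 26 fell and 9 rose in interphase (63.4% and 22.0%, median -0.98), against 37.0% and 37.6% of all genes. In mitosis 13 fell and 17 rose (31.7% and 41.5%, median 0.18), against 31.7% and 32.8% of all genes. PET100, which helps build complex IV, fell by 3.74 in interphase and 1.20 in mitosis. LRPPRC, which stabilises mitochondrial messages, rose by 1.52 and 0.74, from 10.6 and 10.8 FPKM to 32.6 and 32.7 in interphase. Of 12 regulators, 2 fell and 6 rose in interphase (median 0.18), against 37.0% and 37.6% of all genes. In mitosis 3 fell and 3 rose (25.0% each, median 0.04), both shares below those of all genes. GABPA rose by 1.82 and 0.71, and ESRRA fell by 1.76 in interphase and was not called in mitosis (-0.25). The 13 mitochondrially encoded subunits were not analysed here.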

How the data were processed

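RNA from hnRNP U immunoprecipitates and RNA without IP was measured in interphase and mitotic hTERT-RPE1 cells (8 libraries, 4 groups of 2, grouped by the labels). The authors deposited FPKM for each gene and library, per the file headers, on build hg38. TopHat and StringTie are named in the submitters' processing notes, with no version; the versions, the strand setting of the counting and the treatment of reads shared by several genes are not given in the sources used here. No gene was filtered here. The lowest FPKM of any gene in any library was 6.74e-05, so the deposited table lists only genes with a value in each library. Shares of all genes are over this set. FPKM does not hold total depth, so no counting interval is given. Relative depths came from the low genes whose values fell on a common step, taken as whole fragments. These were only 49 to 136 of 2386 low genes (median FPKM below 1), so the depths are rough.

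The test was limma 3.58.1 in R 4.3.3 (lmFit, contrasts.fit, eBayes with trend) on log2(FPKM + 1) of all 13471 genes, with 1 coefficient for each group and 4 residual degrees of freedom. Benjamini-Hochberg adjustment ran over all genes in each of the 5 comparisons, and genes with an adjusted p below 0.05 were called. On this scale, log2(FPKM + 1), the fold change of a low gene is understated. The pipeline was tested on simulated data.

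The members and lists were chosen with earlier results of these data known. Named members are, in each comparison and complex, the called subunits with the largest rise and fall that share a sign in both replicate pairs, a fixed set of core subunits, isoform families, members called in opposite directions in the 2 IP comparisons, the extremes among assembly factors and other non-subunits, and the extremes of the other pathway lists. Of the fixed core subunits, 1 is not reported here. COX7C, NDUFV3, ATP5D and the members of counts of 5 or fewer were named after their values were seen. Lengths and sequences came from GENCODE release 29, which matched all 94 members, 19 by an older symbol. As deposited, 22 members share their interval with another gene.

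Alternatives were a pseudocount of 0.1, a filter on mean FPKM of at least 1 (11271 genes), quantile normalization, median centring, removal of length and GC trends (13134 genes), a replicate block and leaving out each library. The trends with transcripts inside the file interval were added after the data were seen. The replicate numbers of the labels were not taken as pairs, since no shared batch or day is stated.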

Additional observations from a re-analysis of the deposited data

Results flagged for a closer look

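Of 42 named members, 36 had an IP effect that differed between the phases, by the interaction term of the limma fit over all genes (adjusted p below 0.05). All 36 differences, mitosis minus interphase on the log2(FPKM + 1) scale, were positive. The named members include those chosen for a large difference or a large IP effect, so this count is a description and supports nothing about the set.

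In complex I the difference was 2.03 for NDUFB9, 1.78 for NDUFA1, 1.70 for NDUFA13, 1.5 for NDUFA9 and 1.09 for NDUFB1. It was 1.07 for NDUFB5, 1.00 for NDUFS1, 1.00 for NDUFV2 and 0.80 for NDUFV1 in further subunits of complex I. 

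In complex II the difference was 1.22 for SDHB and 1.11 for SDHD. 

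In complex III the difference was 1.99 for UQCR11, 1.57 for UQCRQ, 1.46 for UQCR10, 1.34 for UQCRC1 and 1.03 for UQCRFS1. It was 1.01 for UQCRC2 in further subunits of complex III. 

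In complex IV the difference was 2.27 for COX4I1, 2.23 for COX6B1, 1.94 for COX6A1, 1.85 for COX5B and 1.82 for COX7A2. It was 1.73 for COX8A, 1.72 for COX5A and 1.29 for NDUFA4 in further subunits of complex IV. 

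In complex V the difference was 1.97 for ATP5O, 1.96 for ATP5G2, 1.79 for ATP5I, 1.74 for ATP5G1 and 1.69 for ATP5B. It was 1.41 for ATP5F1, 1.00 for ATP5A1, 0.94 for ATP5C1 and 0.86 for ATP5G3 in further subunits of complex V. 

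Outside the subunits it was 1.82 for the assembly factor NDUFAF3 and 1.64 for ATP5EP2, a copy of the ATP synthase epsilon gene. With length and GC trends removed, the differences of NDUFV1 (0.25), NDUFB1 (0.78) and NDUFA1 (0.92) were no longer called, and after quantile normalization those of NDUFB1 (0.69) and ATP5A1 (0.57) were not. No cause was tested.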

How the results depend on the processing

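The direction of the members' median was the same in the 5 comparisons under each alternative run. With length and GC trends removed, the median was -1.36 for the interphase IP, -0.61 for the mitotic IP, 0.85 for the difference between them (2 members called lower), -0.37 for mitosis against interphase without IP (8 called higher) and 0.48 within the IP. With the trends taken over transcripts inside the file interval, chosen after seeing the data, these medians were -1.46 (9 higher), -0.67, 0.93 (3 lower), -0.37 (8 higher) and 0.52 (9 lower). After quantile normalization the difference had a median of 1.07 (1 lower), the phase comparison without IP -0.60 and that within the IP 0.48. After median centring the interphase IP had -1.95 and the phase comparisons -0.71 without IP and 0.57 within the IP. With a pseudocount of 0.1 the difference had 1.34 and the phase comparison within the IP 0.73. With the filter on low values the latter had 0.69, over 88 members.

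Leaving out 1 library at a time, the medians ran from -2.13 to -2.02 (interphase IP), -0.96 to -0.82 (mitotic IP), 1.21 to 1.29 (difference), -0.66 to -0.60 (phases without IP) and 0.60 to 0.71 (phases within the IP). Members called higher ran from 3 to 5, 10 to 13, 74 to 77, 2 to 4 and 63 to 70 in the same order, and members called lower from 76 to 79, 61 to 64, 0 to 0, 55 to 69 and 3 to 4. A group left with 1 library is assumed to vary like the others. A replicate block gave 5, 13, 78, 4 and 70 members higher and 78, 64, 0, 71 and 6 lower. The correlation of the deviations of same-numbered libraries ran from 0.0883 to 0.528.

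Of 3150 values of the 42 named members under the alternatives, 2941 kept direction and call, 113 lost the call, 52 gained it, 10 turned with a call on 1 side, and 34 turned with a call on neither. The 10 were NDUFS1 (-0.23), SDHC (-0.52) and ATP5S (-1.04) in the interphase IP and NDUFA9 (-0.031), UQCRC1 (0.23) and ATP5S (-0.14) in the mitotic IP with trends over the longest transcript removed, UQCRC1 (0.19) and ATP5A1 (-0.33) in the mitotic IP with transcripts inside the interval, and the difference for UQCRB (0.55 and 0.42). The cause was not tested. Total depth is unknown, so it cannot be said which low values fall under a detection limit.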
